A study of Ovis aries with 2 samples.

Results

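Integrin and laminin genes were described across the cell classes of the anterior pituitary of Hu sheep. The members were every listed gene whose symbol has the stem ITGA, ITGB, LAMA, LAMB or LAMC followed by a number or by L, V, M, X, D or E, with the ITGB1-binding protein genes left out. They came to 38 of 23141 listed genes, and all 38 had a count. They comprised 18 integrin alpha genes, 8 integrin beta genes, the integrin-like gene ITGBL1, and 11 laminin genes (5 alpha, 3 beta and 3 gamma chains). The members took 0.0675% of UMIs in the 3-month library and 0.0450% in the 6-month library.

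The study measured single-cell expression in dissociated anterior pituitaries of sheep aged 3 and 6 months, in a study of puberty, with 1 library per age. The labels give no genotype, treatment or sex and do not say how many animals went into a library. The anterior lobe was cut out by morphology, digested with type IV collagenase and strained, and red blood cells were lysed, so each class is made of the cells that survived this handling. With 1 library per age there is no replicate check and no test. Every difference below is one between these libraries, and age and library cannot be told apart.

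Laminins are cross-shaped proteins of 1 alpha, 1 beta and 1 gamma chain, and they form the sheet-like core of basement membranes. Integrins are surface receptors of 1 alpha and 1 beta chain that bind laminins, collagens, fibronectin or proteins of other cells, and link them to actin inside the cell. In the pituitary, basement membranes surround the capillaries and the lobules of hormone-producing cells, and the folliculostellate cells form a network between those cells.

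The libraries held 142479651 UMIs from 18961 barcodes at 3 months and 175239612 from 15031 at 6 months, with medians of 4361 and 7434 UMIs. The libraries shared 81 barcodes, 0.427% and 0.539% of each. After filtering, 15446 and 12683 cells remained. Clusters were built without the members and named from marker genes. Supporting markers numbered 5 to 7 of 7 for lactotroph-like clusters, 7 of 7 for the somatotroph-like one, 6 to 7 of 8 for gonadotroph-like, 6 to 11 of 12 for stem or folliculostellate-like, 11 to 12 of 12 for endothelial-like, 14 of 17 for fibroblast or mural-like, 9 of 9 for macrophage-like and 9 of 11 for T or NK-like clusters. These 8 classes had at least 20 cells in each library and were compared. Cells numbered 2355 and 5493 (3 and 6 months) for the lactotroph-like class, 1212 and 499 for the somatotroph-like, 1127 and 260 for the gonadotroph-like, 5952 and 2701 for the stem or folliculostellate-like, 1876 and 436 for the endothelial-like, 143 and 30 for the fibroblast or mural-like, 1268 and 1296 for the macrophage-like, and 110 and 1012 for the T or NK-like class. Corticotroph or melanotroph-like cells (218 and 7) and B or plasma-like cells (19 and 144) were under 20 in 1 library and were left out of the comparisons. Clusters that stayed unnamed held 1166 and 805 cells and were also left out. Statements on classes below cover the 8 compared classes.

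A level is the number of UMIs of a gene per 1000000 UMIs outside 7 hormone genes (PRL, GH, LHB, FSHB, CGA, TSHB and POMC), summed over a class in 1 library. Leaving the hormone genes out puts hormone-producing and other classes on 1 scale. Brackets after a level give the exact 95% Poisson interval, which covers counting error only. Levels of different genes are UMI counts and were not scaled by gene length, so they are compared between classes and libraries, not between genes.

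The adhesion genes marked out classes in both libraries. A member was taken as class-specific in a library when its level in 1 class was at least 2-fold that of every other compared class and rested on at least 20 UMIs. By this rule 15 of the 27 members that reached 20 UMIs in their top class in both libraries were specific to the same class at both ages (55.6%). Over all genes the share was 17.3% of 10700. The class with the highest level was the same at both ages for 24 of the 27 (88.9%), against 68.3% of all genes. Within single libraries, 23 of 33 members were specific at 3 months and 19 of 28 at 6 months, against 24.3% and 25.2% of all genes. Among them were LAMA2, LAMB1 and LAMC3 in fibroblast or mural-like cells, LAMA3 in somatotroph-like cells, LAMA1, ITGA5, ITGA6 and ITGB1 in endothelial-like cells, LAMB3, ITGA2, ITGB6 and ITGB8 in stem or folliculostellate-like cells, and ITGA2B and ITGAM in macrophage-like cells. With means of per-cell levels, and with a 3-fold rule, ITGA2, ITGB1 and ITGB8 were no longer class-specific in both libraries. ITGB8 was also lost at both other clustering resolutions, and ITGB1, ITGB8 and LAMB3 with doublets kept. None of the 15 was specific to lactotroph-like, gonadotroph-like or T or NK-like cells at both ages. At 6 months, 0 UMIs in the 30 fibroblast or mural-like cells has an upper Poisson bound of 27.8. ITGA2B, ITGAM, LAMB3 and LAMA1 had 0 UMIs there, and their 6-month levels in their top class lay under that bound. For these genes the counts cannot place the top class above fibroblast or mural-like cells at 6 months.

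**Figure D1:**
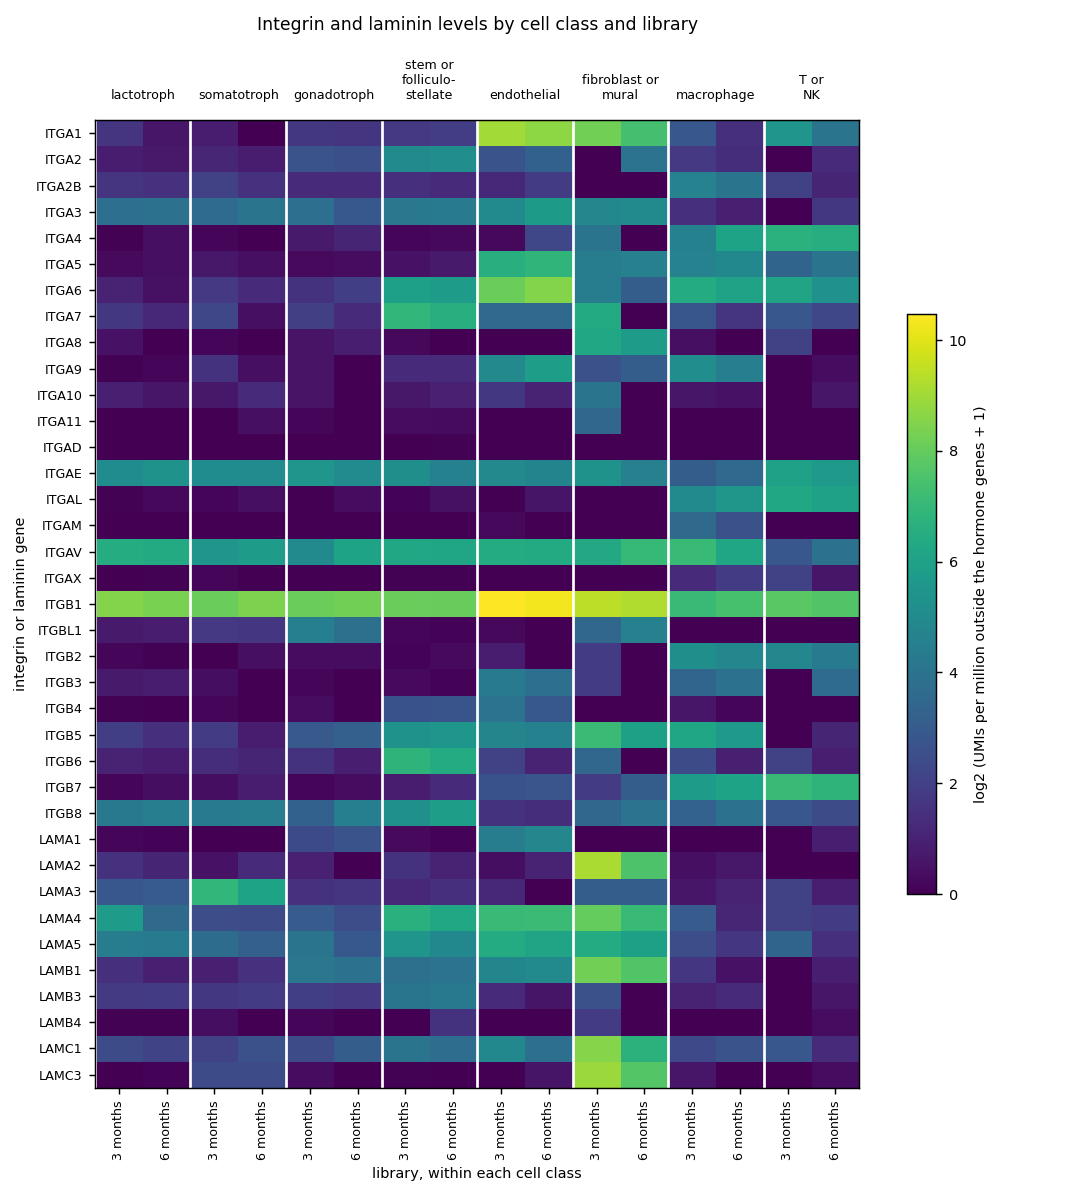
Heat map of the genes reported here (rows) in the 8 compared classes, with a column for each library; colour gives log2 of UMIs per 1000000 outside the hormone genes plus 1. ITGB1 is bright in every class, LAMA2 and LAMC3 stand out in fibroblast or mural-like cells and LAMA3 in somatotroph-like cells, at both ages.

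Fibroblast or mural-like cells held the laminin chains most narrowly. LAMA2, the alpha chain of muscle and nerve basement membranes, had a level of 561 (490 to 640) at 3 months from 222 UMIs and 188 (122 to 278) at 6 months from 25 UMIs. The next class with a count reached 1.87 and 1.46, so the fibroblast or mural-like level was 299-fold and 129-fold higher than that. T or NK-like cells had 0 UMIs of LAMA2 and of LAMC3 at 3 months, with an upper bound of 11.4, so the 3-month folds over that class may be smaller. LAMC3, a gamma chain, had 470 (405 to 543) and 203 (134 to 296), 106-fold and 46.5-fold above the next class, which was somatotroph-like in both libraries. LAMB1, the beta chain shared by many laminins, had 303 (251 to 363) and 196 (128 to 287), 11.1-fold and 6.28-fold above endothelial-like cells. LAMC1, the gamma chain of most laminins, had 377 there at 3 months and 105 at 6 months, against 28.9 and 13.2 in endothelial-like cells. The 6-month value rested on 14 UMIs, under the minimum of 20. This class is small, and at 6 months its 30 cells gave 23.3% of their UMIs to the hormone genes, against 2.46% at 3 months. The part of such UMIs in the levels was not tested.

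Among the compared classes, LAMA3 was highest in somatotroph-like cells. This gene encodes the alpha chain of the epithelial laminin that anchors hemidesmosomes, where it assembles with the product of LAMB3. Its level was 122 (114 to 131) at 3 months from 830 UMIs and 65.6 (56.3 to 75.9) at 6 months from 180 UMIs, 16.1-fold and 8.71-fold above fibroblast or mural-like cells, whose levels came from 3 UMIs and 1 UMI. In lactotroph-like cells it stood at 6.23 and 7.07, and in stem or folliculostellate-like cells at 1.25 and 1.76. Lactotroph-like cluster 1 alone had 32.2 and 22.6. Unnamed cluster 22, outside the comparison, had TSHB and GH among its leading genes. Its 79 cells at 3 months had LAMA3 at 121 from 21 UMIs, so the gene was not particular to the somatotroph-like class. LAMB3 was not high in the same class, at 2.21 and 2.55 in somatotroph-like cells.

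LAMB3 was highest in stem or folliculostellate-like cells. It had a level of 15.8 (14.5 to 17.1) there at 3 months and 17.7 (16.1 to 19.3) at 6 months, 3.12-fold and 6.80-fold above the next class, which at 3 months was fibroblast or mural-like with 2 UMIs. In the reference gene table LAMB3 overlaps 4 protein-coding genes, among them HSD11B1. HSD11B1 was itself at 299 and 178 in stem or folliculostellate-like cells and at most 48.0 in any other compared class, and how the counting assigned reads in the overlap is not given in the sources used here. LAMB4, a beta chain gene next to LAMB1 in that table, had 0 UMIs in the 5952 stem or folliculostellate-like cells at 3 months and 49 at 6 months. With 3 UMIs over the class set in place of the 0, its 6-month level of 1.88 was 22.0-fold higher. Of the 49 UMIs, 48 lay in cluster 6, which also held 610 cells at 3 months with 0 UMIs. The count is just under the minimum of 50 set for comparisons between libraries.

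LAMA4 and LAMA5 were shared by several classes. LAMA4, the alpha chain of vessel laminins, was highest in fibroblast or mural-like cells at 3 months (258) and in endothelial-like cells at 6 months (140), and stood at 131 in endothelial-like cells at 3 months. At 6 months fibroblast or mural-like cells had 135 (80.3 to 214) from 18 UMIs, which cannot be told apart from the 140 (124 to 158) of endothelial-like cells. It was also at 98.4 and 77.4 in stem or folliculostellate-like cells. LAMA5, the broadly used alpha chain, reached 86.6 and 68.1 in endothelial-like cells, 85.9 and 60.2 in fibroblast or mural-like cells and 42.6 and 28.6 in stem or folliculostellate-like cells. The first pair of classes cannot be told apart within counting error. LAMA1, an alpha chain of embryonic basement membranes, was low but endothelial, at 20.3 (16.9 to 24.2) and 27.4 (20.5 to 36.0), 5.02-fold and 5.03-fold above gonadotroph-like cells.

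**Figure D2:**
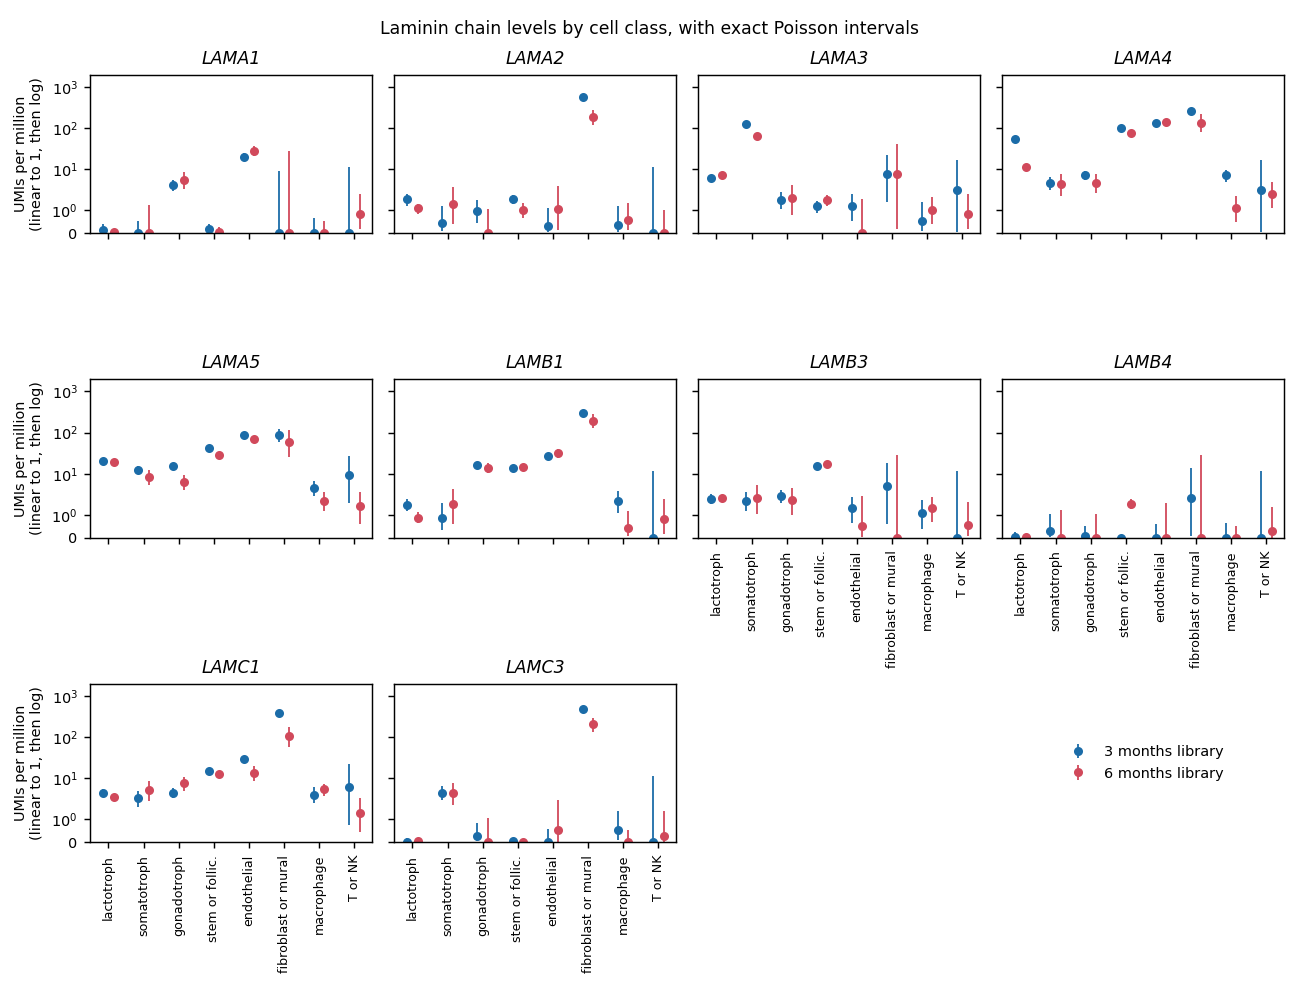
Levels of the laminin chains reported here (UMIs per 1000000 outside the hormone genes, linear from 0 to 1 and logarithmic above) by class, with blue points for the 3-month and red points for the 6-month library and bars for exact 95% Poisson intervals. LAMA3 peaks in somatotroph-like cells while LAMB3 peaks in stem or folliculostellate-like cells, and LAMA2 and LAMC3 in fibroblast or mural-like cells.

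Among the receptors, ITGB1, the beta chain shared by most laminin, collagen and fibronectin receptors, was found in every class. Its level was 1423 (1393 to 1453) at 3 months and 1262 (1212 to 1313) at 6 months in endothelial-like cells. That was 2.08-fold and 2.10-fold above fibroblast or mural-like cells, so it passed the 2-fold rule narrowly. The other 6 compared classes lay between 133 and 367 at 3 months and between 173 and 340 at 6 months, with macrophage-like cells lowest of them at both ages. In the reference table ITGB1 overlaps CCDC7, whose level reached at most 34.9 at 3 months and 36.1 at 6 months in a compared class, lowest in fibroblast or mural-like cells with 0 UMIs in both libraries.

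The alpha chains of the laminin receptors went to different classes. ITGA6, which pairs with ITGB1 or ITGB4, had 278 (265 to 291) and 374 (347 to 403) in endothelial-like cells, 3.20-fold and 5.76-fold above macrophage-like cells, and 58.8 and 54.1 in stem or folliculostellate-like cells. ITGA7, known from muscle, was highest in stem or folliculostellate-like cells, at 122 from 4312 UMIs and 96.0 from 2506. At 3 months fibroblast or mural-like cells came next at 83.4 from 33 UMIs, and at 6 months they had 0 of the gene, so it counted as class-specific at 6 months only. ITGA3 was spread over endothelial-like (31.3 and 50.7), fibroblast or mural-like (27.8 and 30.1) and stem or folliculostellate-like cells (17.2 and 19.3). ITGB4, the hemidesmosome beta chain, had 14.8 and 6.33 in endothelial-like cells and 5.22 and 5.51 in stem or folliculostellate-like cells. It had at most 3 UMIs in each of the other compared classes in either library.

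The collagen receptors divided between 2 classes. ITGA1 stood at 524 and 418 in endothelial-like cells, with fibroblast or mural-like cells next at 301 and 166. The fold between them was 1.74 at 3 months and 2.52 at 6 months, so it was class-specific at 6 months only. ITGA2 was specific to stem or folliculostellate-like cells, at 30.2 (28.4 to 32.0) and 33.9 (31.7 to 36.2). It was 5.49-fold above gonadotroph-like cells at 3 months. At 6 months it was 2.25-fold above fibroblast or mural-like cells, whose level came from 2 UMIs. The other alpha chains of this kind, ITGA10 and ITGA11, had at most 27 UMIs in any compared class.

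The receptors for fibronectin and for latent TGF-beta showed 3 patterns. ITGA5, the fibronectin receptor chain, was endothelial, at 94.8 (87.3 to 103) and 116 (101 to 132), 3.91-fold and 4.04-fold above macrophage-like cells. ITGAV, the common alpha chain of this group, was present in all compared classes, from 6.19 and 14.0 in T or NK-like cells to 133 in macrophage-like cells at 3 months and 128 in fibroblast or mural-like cells at 6 months, the last from 17 UMIs. ITGB6 and ITGB8, whose products pair with it and activate TGF-beta, were specific to stem or folliculostellate-like cells. ITGB6 had 111 (108 to 115) and 87.3 (83.8 to 91.0), 11-fold and 79.9-fold above the next class, whose levels came from 4 and 3 UMIs. ITGB8 had 37.0 (35.0 to 39.1) and 55.2 (52.4 to 58.1), only 2.02-fold and 2.49-fold above the next class, since the compared hormone-producing classes held it at 8.67 to 22.1. Single clusters came closer: lactotroph-like cluster 1 had ITGB8 at 29.2 and 36.5, and unnamed cluster 3 at 19.5 and 49.3. ITGB5 was highest in fibroblast or mural-like cells, at 142 and 60.2 from 56 and 8 UMIs, and ITGA8 also, at 75.8 and 52.7 from 30 and 7 UMIs.

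ITGA2B and ITGB3, which form the platelet fibrinogen receptor, were not led by the same class. ITGA2B passed the class-specific rule in macrophage-like cells, at 23.7 (19.8 to 28.2) and 15.2 (12.4 to 18.4), 7.32-fold and 5.75-fold above the next class with a count. At 6 months fibroblast or mural-like cells had 0 UMIs of it, with an upper bound of 27.8. The 4 measured platelet markers summed to a level of 0.725 and 0.579 in macrophage-like cells, and 2 of them were at 0. ITGB3 stood at 19.0 and 13.2 in endothelial-like cells and at 9.60 and 13.9 in macrophage-like cells, so endothelial-like cells led at 3 months and the classes could not be told apart within counting error at 6 months.

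The leukocyte integrins separated immune from other classes. ITGAM, a complement receptor chain of myeloid cells, had 11.4 (8.77 to 14.6) and 5.06 (3.53 to 7.04) in macrophage-like cells, from 63 and 35 UMIs. Across all 7 other compared classes it had 1 UMI at 3 months and 0 at 6 months. ITGB2, the beta chain it shares with ITGAL, stood at 35.9 and 27.6 in macrophage-like and 27.9 and 18.5 in T or NK-like cells, from 9 and 66 UMIs. In lactotroph-like cells, which should lack it, ITGB2 was at 0.146 and 0.0416. ITGA4, ITGAL and ITGB7, chains of lymphocyte homing and adhesion receptors, were highest in T or NK-like cells, at 102, 77.4 and 136 at 3 months and 92.1, 62.5 and 112 at 6 months. Macrophage-like cells came next for each, at 23.2, 30.6 and 53.4 and then at 65.8, 45.3 and 67.1. All 3 were therefore T or NK-specific at 3 months and none at 6 months. The rule compares whole classes. Macrophage-like cluster 20 had ITGA4 at 130 and 136 and ITGAL at 135 and 71.05, values above those of T or NK-like cells in both libraries. ITGB7 was at 53.9 and 34.9 in that cluster. Cluster 20 held 3.00% of the macrophage-like cells at 3 months, 38 cells, and 18.0% at 6 months. ITGA9 stood at 34.6 and 21.4 in macrophage-like cells and at 29.3 and 58.1 in endothelial-like cells. ITGAX reached at most 18 UMIs in a compared class, and ITGAD had 0 UMIs in all cells at 3 months and 5 at 6 months.

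ITGAE, the partner of ITGB7 on tissue lymphocytes, did not follow that pattern. It stood at 61.9 and 48.5 in T or NK-like cells, but also at 32.1 to 43.7 in the 3 compared hormone-producing classes over both libraries, where ITGB7 was at most 0.729. Macrophage-like cells were lowest of the compared classes, at 7.43 and 11. ITGBL1, which encodes a secreted protein with integrin beta-like repeats, was highest in gonadotroph-like cells at 3 months, at 22.0 from 229 UMIs, and stood at 13.5 there at 6 months. In the reference table it overlaps FGF14, which was itself at 219 and 130 in gonadotroph-like cells.

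The members with the most UMIs in each class were partly shared between classes. Gene length was not taken into account, so the order says which members the counts come from and not which gene is expressed more. By UMIs, the 5 top members in endothelial-like cells were ITGB1, ITGA1, ITGA6, LAMA4 and ITGA5 at both ages. In stem or folliculostellate-like cells they were ITGB1, ITGA7, ITGB6, LAMA4 and ITGAV at both ages, and in somatotroph-like cells ITGB1, LAMA3, ITGAV, ITGAE and ITGB8. In fibroblast or mural-like cells 4 of the 5 were the same at both ages (ITGB1, LAMA2, LAMC3 and LAMB1), with LAMC1 as the other at 3 months and ITGA1 at 6 months. In T or NK-like cells 4 were the same (ITGB1, ITGB7, ITGA4 and ITGAL), with ITGA6 and then ITGAE beside them. The 3 compared hormone-producing classes shared ITGB1, ITGAV, ITGAE and ITGB8 at 6 months. Lactotroph-like cells had ITGB1, ITGAV, ITGAE and LAMA5 in both, with LAMA4 at 3 months and ITGB8 at 6 months. Gonadotroph-like cells had ITGB1, ITGAV, ITGAE and LAMB1 in both, with ITGBL1 and then ITGB8. Macrophage-like cells had ITGB1, ITGAV, ITGA6 and ITGB7 in both, with ITGB5 and then ITGA4.

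The libraries were then compared within each class. A member was counted as apart when it had at least 50 UMIs in the library with the higher level, reached 0.5 of the all-cell level there, and differed at least 2-fold. The second condition keeps out levels at or below what RNA from lysed cells could bring. A log2 ratio is that of the 6-month over the 3-month level, with its exact 95% interval for counting error. Of 11 members that reached 50 UMIs in the higher library in lactotroph-like cells 1 was apart, and it was lower; of all 12102 genes measured there 5.3% were apart, 2.07% higher and 3.24% lower. Of 6 in somatotroph-like cells 0 were apart, against 2.24% of 8244 genes. Of 10 in gonadotroph-like cells 2 were higher and 1 lower, against 9.62% of 9607 genes, 3.37% higher and 6.25% lower. Of 21 in stem or folliculostellate-like cells 0 were apart, against 5.03% of 12851 genes, 3.35% of them higher. In endothelial-like cells 2 of 16 were lower, against 6.67% of 7815 genes apart and 4.12% lower. In fibroblast or mural-like cells 4 of 8 were lower, against 21.1% of 892 genes apart, 3.48% higher and 17.6% lower. In macrophage-like cells 1 of 15 was higher and 1 lower, against 9.26% of 8684 genes, 6.55% higher and 2.71% lower. In T or NK-like cells 0 of 3 were apart, against 14.0% of 3281 genes. The members' median log2 ratio lay between -0.34 in gonadotroph-like cells and 0.73 in T or NK-like cells, outside fibroblast or mural-like cells. Over all genes measured, those classes had medians of -0.09 and 0.37. The other members, 17 to 35 of 38 per class, had under 50 UMIs in the library where their level was higher.

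Among the members with 50 UMIs in the higher library, LAMA4 in lactotroph-like cells gave the ratio farthest from 0. Its level was 54.6 from 1122 UMIs at 3 months and 11.4 from 549 UMIs at 6 months, a log2 ratio of -2.26 (-2.41 to -2.11). The difference was also seen within clusters. In cluster 1 the level was 63.7 (50.9 to 78.7) at 3 months and 19.0 (14.7 to 24.1) at 6 months, and in cluster 9 it was 57.8 (54.3 to 61.4) and 13.7 (5.92 to 27.0). In clusters 10 and 18 the 3-month cells were already low, at 14.1 and 14.6, beside 10.9 and 10.4 at 6 months. Cluster 9 held 73.9% of the 3-month lactotroph-like cells and 1.00% of the 6-month ones, and cluster 10 held 6.28% and 60.6%. Restricted to cluster 1, the log2 ratio was -1.75 (-2.23 to -1.27). The 17 fibroblast or mural markers summed to 184 in lactotroph-like cells at 3 months and 11.6 at 6 months, with 4 of them at 0 in each. These markers include RGS5, which was also among the 10 leading genes of lactotroph-like cluster 9. The part of RGS5 in the sums was not tested. LAMC3, specific to fibroblast or mural-like cells, had 0 and 3 UMIs in lactotroph-like cells, and LAMA2 had 38 and 54. The 10 other members measured in this class had log2 ratios from -0.70 (ITGB5) to 0.27 (ITGAE).

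In gonadotroph-like cells ITGAV and ITGB8 were higher at 6 months. ITGAV was at 31.4 from 326 UMIs and then 67.2 from 234, a log2 ratio of 1.10 (0.85 to 1.35). ITGB8 was at 8.67 from 90 UMIs and 22.1 from 77, a log2 ratio of 1.35 (0.89 to 1.81). The clusters of the class differed. Cluster 25 held 2.31% of the gonadotroph-like cells at 3 months and 58.5% at 6 months, and at 6 months it had 81.1 ITGAV and 27.3 ITGB8. In cluster 14, which held 74.8% and 26.2%, ITGAV was at 31.4 and 30.5 and ITGB8 at 8.91 and 10.2. In cluster 12, which held 22.9% and 15.4%, both were higher at 6 months: ITGAV was at 28.6 from 16 UMIs and 70.8 from 23, a log2 ratio of 1.31 (0.32 to 2.32), and ITGB8 at 1.79 from 1 UMI and 18.5 from 6. Without cluster 25 the log2 ratios were 0.40 for ITGAV and 0.54 for ITGB8, and neither was counted as apart. The 7 lactotroph markers, PRL included, summed to 21168 in gonadotroph-like cells at 3 months and 98928 at 6 months, and their part in these levels was not tested.

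ITGA3 was lower at 6 months in gonadotroph-like cells, at 13.0 and 6.32, a log2 ratio of -1.04 (-1.76 to -0.38). Without cluster 25 it stayed apart, at -1.64 (-3.29 to -0.38), from 5 UMIs at 6 months, all in cluster 12. In cluster 14 ITGA3 had 128 UMIs at 3 months and 0 at 6 months. In cluster 12 it went the other way, at 8.94 and 15.4 from 5 UMIs each. LAMB1 was also counted as apart without cluster 25. It had 168 UMIs and a level of 17.2 in cluster 14 at 3 months and 0 UMIs there at 6 months. The 48 UMIs of LAMB1 in cluster 25 at 6 months gave 21.2. With all clusters its levels were 16.6 and 14.1. LAMA5 was at 15.2 and 6.32 but stayed under 0.5 of its all-cell level at 3 months, so it was not counted. Neither ITGAV nor ITGA3 was counted as apart with means of per-cell levels, at clustering resolutions of 0.5 or 2.0, with a stricter cell filter or with the members kept for clustering.

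**Figure D3:**
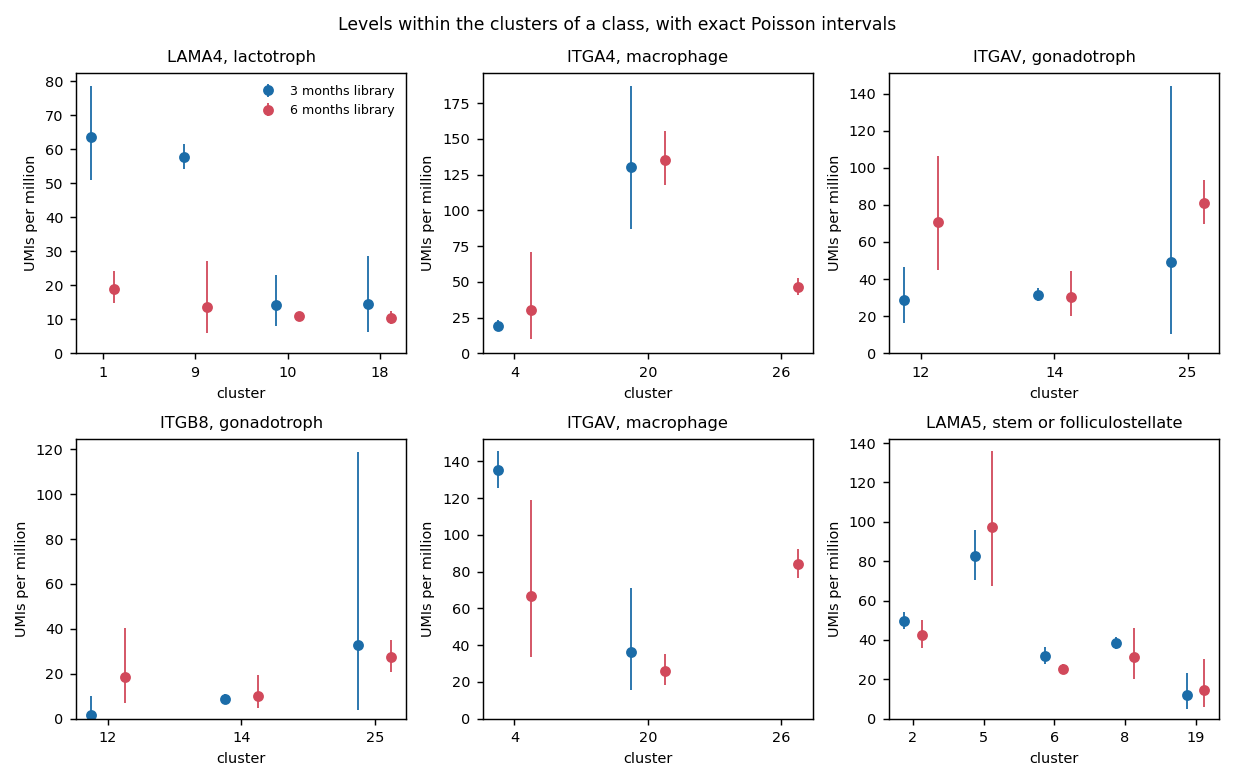
Levels (UMIs per 1000000 outside the hormone genes) of 6 class and gene pairs in the single clusters of the class, with blue points for the 3-month and red points for the 6-month library and bars for exact 95% Poisson intervals; points from under 20 cells, and cluster 24 with 20 cells in the 3-month library only, are left out. LAMA4 is lower at 6 months within lactotroph-like clusters 1 and 9, whereas the intervals of ITGAV and ITGB8 overlap within gonadotroph-like cluster 14.

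In macrophage-like cells ITGA4 was higher and ITGAM lower at 6 months. ITGA4 was at 23.2 from 128 UMIs and 65.8 from 455, a log2 ratio of 1.5 (1.22 to 1.80). The libraries hardly shared macrophage-like clusters. Cluster 4 held 96.1% of the 3-month cells and 3.16% of the 6-month ones, and cluster 26 held 0.868% and 78.9%. ITGA4 was at 18.9 (15.4 to 23.0) in cluster 4 at 3 months and at 46.7 (41.0 to 52.9) in cluster 26 at 6 months. In cluster 4 at 6 months it was at 30.3 (9.82 to 70.6) from 5 UMIs, which cannot be told apart from the 3-month level. In cluster 20, led by S100A4 and APOBEC3A, it was at 130 (87.3 to 187) and 136 (118 to 155), with no difference within counting error. Without cluster 20 the log2 ratio was 1.30 (0.96 to 1.66), which mostly sets cluster 4 at 3 months against cluster 26 at 6 months. The 5 measured dendritic cell markers summed to 66.1 and 188 in this class and the 4 neutrophil markers to 54.5 and 205, and their part in the result was not tested. ITGAM had a log2 ratio of -1.17 (-1.81 to -0.55) and was not counted with means of per-cell levels. ITGAV, at 133 and 70.9, had -0.90 (-1.07 to -0.74), short of 2-fold.

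In endothelial-like cells ITGB4 and LAMC1 were lower at 6 months. ITGB4 was at 14.8 from 92 UMIs and 6.33 from 12, a log2 ratio of -1.23 (-2.23 to -0.35). LAMC1 was at 28.9 from 179 UMIs and 13.2 from 25, a log2 ratio of -1.13 (-1.80 to -0.52). Cluster 29 came from the 6-month library alone. Without it ITGB4 stayed apart at -1.17 (-2.34 to -0.18), and LAMC1 was at -0.91 (-1.63 to -0.25), short of 2-fold. LAMC1 was also not counted with means of per-cell levels or with doublets kept, and ITGB4 was not with the stricter cell filter. The class-specific chains stayed under 2-fold: ITGA6 had 0.43 (0.30 to 0.56), ITGA5 0.29 (0.06 to 0.51), LAMA1 0.43 (-0.06 to 0.91) and ITGB1 -0.17 (-0.24 to -0.11). Without cluster 29 they had 0.21 (0.06 to 0.36), -0.23 (-0.54 to 0.06), 0.82 (0.32 to 1.31) and -0.36 (-0.44 to -0.28). The direction of ITGA5 turned, since it was at 205 in cluster 29 and at 80.7 in cluster 0 at 6 months. ITGB1 was then at 1112, less than 2-fold the 602 of fibroblast or mural-like cells. ITGA9 had 0.98 (0.63 to 1.33) and was counted as apart with means of per-cell levels, with the stricter cell filter and with doublets kept. Without cluster 29, where it was at 113, it had 0.32 (-0.16 to 0.78).

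In fibroblast or mural-like cells LAMC1, LAMA2, ITGB5 and LAMC3 were lower at 6 months. LAMC1 had a log2 ratio of -1.84 (-2.74 to -1.05) and LAMA2 one of -1.58 (-2.24 to -0.98). ITGB5 had -1.23 (-2.51 to -0.16) and LAMC3 -1.21 (-1.85 to -0.62). With means of per-cell levels LAMA2 and LAMC3 were not counted, and with doublets kept ITGB5 and LAMC3 were not. LAMB1 differed less, at -0.63 (-1.30 to -0.01). All 8 members that reached 50 UMIs had a negative ratio, with a median of -1.07 beside -0.33 over all genes measured. Members pass the minimum of 50 UMIs through their higher library, so these values lend no support to a direction. At 6 months this class held only 132872 UMIs outside the hormone genes, so only a member with a high level could pass from that side. The 7 lactotroph markers summed to 13594 at 3 months and 302980 at 6 months.

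No member was counted as apart in stem or folliculostellate-like cells, where 21 were measured. All lay under 2-fold, with a median log2 ratio of -0.02 beside 0.03 over all genes. ITGB8 had 0.58 (0.47 to 0.69), LAMA5 -0.58 (-0.70 to -0.45) and ITGAE -0.61 (-0.75 to -0.47), each beyond counting error. ITGA2, ITGB6 and LAMB3 had 0.17 (0.04 to 0.30), -0.35 (-0.42 to -0.27) and 0.16 (-0.02 to 0.34). LAMA5 varied more between clusters than between libraries, from 11.8 in cluster 19 to 82.5 in cluster 5 at 3 months and from 14.6 to 97.2 in the same clusters at 6 months. Cluster 24, with 20 cells in the 3-month library only, had 0 UMIs of it.

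Somatotroph-like cells, a single cluster, had 6 measured members and none apart. LAMA3 had a log2 ratio of -0.90 (-1.14 to -0.67), so its 6-month level was lower by more than counting error and by less than 2-fold. With TMM scaling the log2 ratio was -1.08 and LAMA3 was counted as apart. ITGB1 had 0.35 (0.23 to 0.46). In T or NK-like cells only ITGAV, ITGA5 and ITGB1 had 50 UMIs in the library with the higher level. ITGB7, ITGA4, ITGAL, ITGAE, ITGA6, ITGB2 and ITGA1 had 54 to 399 UMIs at 6 months, but their level was higher at 3 months, where the 110 cells gave 9 to 44. ITGAV, at 6.19 and 14.0, was far under its all-cell level and was not counted, and ITGB1 had -0.17 (-0.53 to 0.20).

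**Figure D4:**
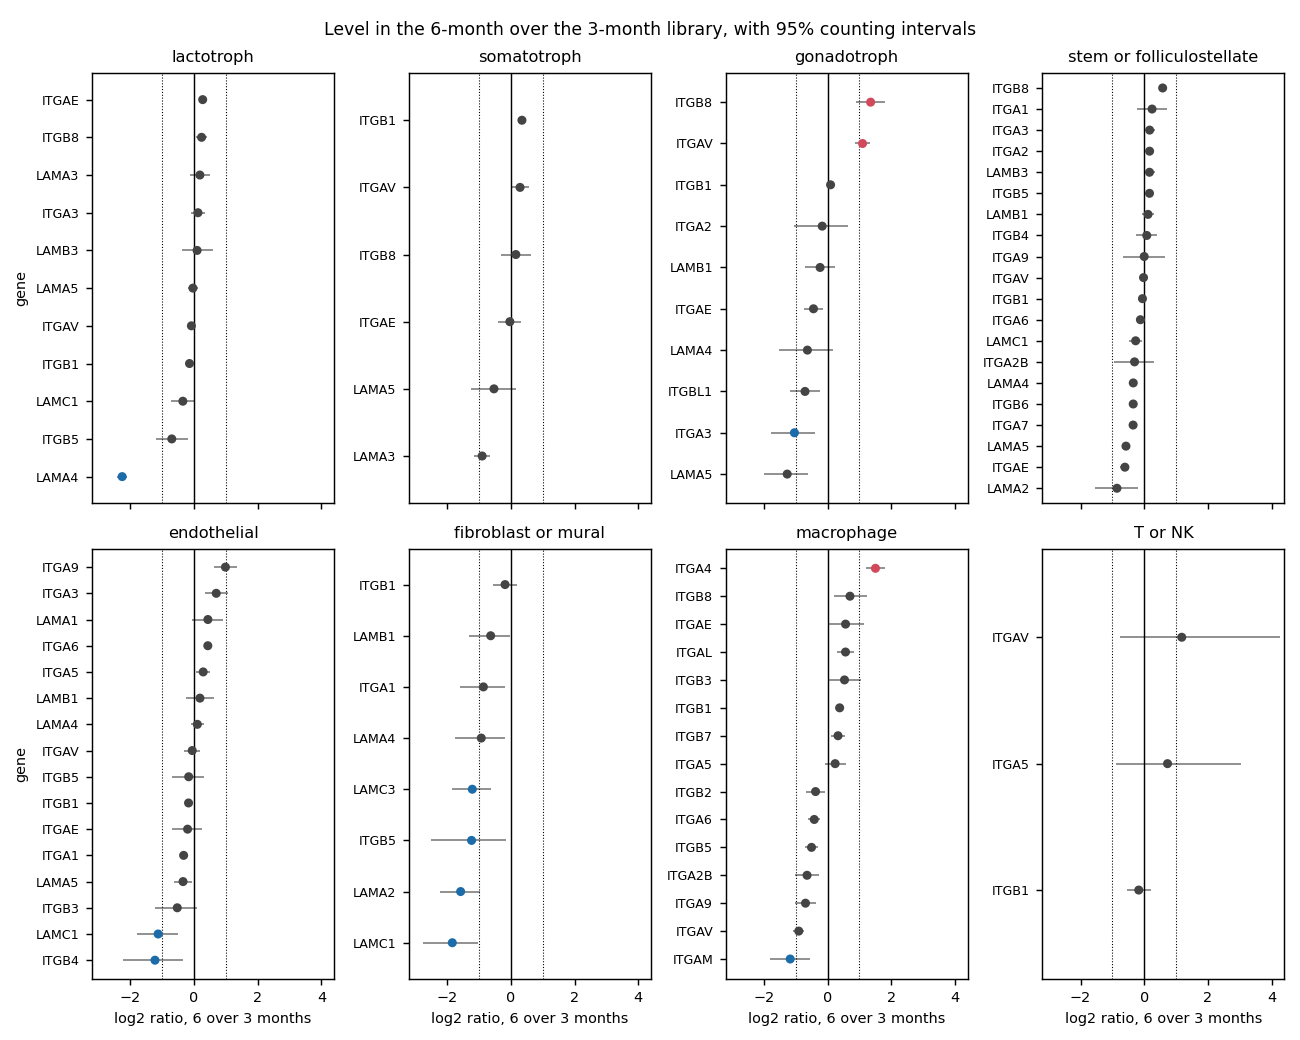
Log2 ratio of the 6-month over the 3-month level for the members reported here with at least 50 UMIs, by class; bars are exact 95% intervals for counting error, dotted lines mark 2-fold, and red and blue points are members counted as higher and lower at 6 months. LAMA4 in lactotroph-like cells lies farthest from 0 of the genes shown, and the points of stem or folliculostellate-like cells lie between the dotted lines.

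Partner genes of the integrins and laminins were read in the same way. Of 16 basement membrane partners, 10 reached 20 UMIs in their top class in both libraries and 3 were specific to the same class at both ages: HSPG2, which encodes perlecan, in endothelial-like cells, COL18A1 in fibroblast or mural-like cells and FRAS1 in stem or folliculostellate-like cells. Of 21 integrin ligands outside the laminins, 16 were measured and 4 were specific, TNC and CCN1 to stem or folliculostellate-like and POSTN and MFGE8 to fibroblast or mural-like cells. Of 28 adaptors and regulators, 25 were measured and 2 were specific (LIMS2 and PXN, both endothelial), a share of 8%. None was specific among 5 measured laminin receptors outside the integrins or 3 measured hemidesmosome genes. Over all genes the share specific to the same class at both ages was 17.3% of 10700.

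Between the libraries, the ligands outside the laminins had more genes apart than any other partner list. In endothelial-like cells 4 of 12 measured were higher at 6 months and 0 lower, in stem or folliculostellate-like cells 3 of 15 higher and 1 lower, in macrophage-like cells 2 of 11 higher and 1 lower, and in fibroblast or mural-like cells 1 of 4 higher and 2 lower. Gonadotroph-like cells had 1 higher and 1 lower of 9, lactotroph-like cells 1 and 1 of 8, somatotroph-like cells 0 and 1 of 4, and T or NK-like cells 0 of 1. Over all genes, 2.55% were higher in endothelial-like, 3.35% in stem or folliculostellate-like and 6.55% in macrophage-like cells. In stem or folliculostellate-like and macrophage-like cells 1.69% and 2.71% were lower. The shares higher and lower were 3.48% and 17.6% in fibroblast or mural-like, 3.37% and 6.25% in gonadotroph-like, and 2.07% and 3.24% in lactotroph-like cells. In somatotroph-like cells 1.25% were lower, and in T or NK-like cells 14.0% were apart. SPP1, which encodes the integrin ligand osteopontin, was at 7.51 and 845 in gonadotroph-like cells, a log2 ratio of 6.81 (6.49 to 7.16). In somatotroph-like cells it was at 1986 and 740, a log2 ratio of -1.42 (-1.49 to -1.36). ICAM5, a ligand of leukocyte integrins, was at 0.511 and 15.6 in stem or folliculostellate-like cells (4.93, 4.26 to 5.70). THBS1, which encodes thrombospondin, was at 38.2 and 633 in macrophage-like cells (4.05, 3.85 to 4.26).

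Basement membrane partners were lower at 6 months for 3 of 9 measured in endothelial-like cells, 2 of 8 in fibroblast or mural-like, 1 of 5 in lactotroph-like and 1 of 15 in stem or folliculostellate-like cells. Over all genes 4.12%, 17.6%, 3.24% and 1.69% were lower in these classes, so the fibroblast or mural-like count lies near the share of all genes. In gonadotroph-like cells 1 of 7 was higher and 1 lower, against 3.37% and 6.25% of all genes. None was apart among 4 in somatotroph-like cells and 1 in macrophage-like cells. AGRN, which encodes agrin, was at 35.5 and 8.97 in endothelial-like cells (-1.98, -2.79 to -1.27). FREM1 was at 20.3 and 53.7 in gonadotroph-like cells (1.40, 1.11 to 1.69) and at 23.7 and 10.5 in stem or folliculostellate-like cells (-1.17, -1.37 to -0.97). Of the adaptors, 0 of 24 were apart in stem or folliculostellate-like cells, 0 of 19 in somatotroph-like, 0 of 19 in macrophage-like and 0 of 9 in T or NK-like cells. There was 1 lower of 23 in endothelial-like, 1 lower of 22 in lactotroph-like, 3 lower of 8 in fibroblast or mural-like (17.6% of all genes), and 2 higher and 1 lower of 19 in gonadotroph-like cells. CD9, a tetraspanin that binds integrins, was at 137 and 39.1 in lactotroph-like cells (-1.81, -1.89 to -1.72) and at 69.4 and 221 in gonadotroph-like cells (1.67, 1.52 to 1.82). Of the laminin receptors outside the integrins, 1 was lower, DAG1 in fibroblast or mural-like cells at 154 and 67.7 (-1.19, -2.38 to -0.17), and none of the hemidesmosome genes was apart in any class.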

How the data were processed

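Single-cell RNA libraries of the anterior pituitary, 1 per age (3 and 6 months), were grouped by the sample titles. The deposited matrices hold raw UMI counts for every gene in each barcode. The submitters' processing notes give Cell Ranger 5.0.0 as the counting tool, and the file headers 5.0.1. No genome build, annotation or strand setting is named in the sources used here. The deposited feature and barcode lists hold other, non-numeric entries. Of 23141 gene identifiers, 22726 (98.2%) matched a reference table of ARS-UI_Ramb_v3.0, used for names, overlaps and neighbours only. It renamed 439 placeholder symbols. There, 7 of the 38 members overlap a protein-coding gene.

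Cells needed 500 genes and 1000 UMIs, which left 16368 and 13253. Scrublet within scanpy 1.11.5 marked 922 (5.63%) and 570 (4.30%) as doublets, which were removed; others may remain. Clustering used log values after scaling each cell to 10000 UMIs. Hormone, mitochondrial, ribosomal protein and member genes were barred from the 3000 variable genes, whose scaled values were limited to 10. From 30 principal components and 15 neighbours per cell, the Leiden method (igraph 0.11.9) found 30 clusters at resolution 1.0.

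Of 145 markers in 19 lists, 136 were in the files. A marker supported a name when it was 1.5-fold above the median of the other clusters and present in at least 10% of cells. A name needed 3 supporting markers, a mean log2 fold of 0.7, no other class with as many markers or as large a share of its list, and no other class with more markers among the 10 leading genes. This rule, set with the clusters already in view, replaced a version that left many lactotroph-like cells unnamed.

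UMIs were summed per class and library. With 1 library per age no test was run. Ratios have exact conditional binomial and levels exact Poisson intervals at 95%, which treat UMIs as independent. In ratios between libraries, 3 counts stood in for a class with no count of a gene. In folds between classes they did so only where no other compared class had a count. Elsewhere a class with no count was taken at 0, also where the class was small. The 2-fold rules were run over all genes. The rule between libraries was checked on simulated counts that varied by counting error alone, without its condition on the all-cell level. The class-specific rule was not checked in this way. The members and gene lists were chosen with earlier results of these data known. All members enter the counts, and the values of 1 are not reported here. Those named with values were specific at both ages, apart between libraries, laminin chains or among the 5 highest of a class, with the others given for context. Of each partner list at most 3 members with the interval bound farthest from 0 are named, beside those specific at both ages. Alternatives were all UMIs as denominator, edgeR 4.0.16 TMM, means of per-cell levels, resolutions 0.5 and 2.0, at least 1000 genes and 2000 UMIs, doublets kept, members kept for clustering, subtraction of free RNA, and other minimums and folds. The analysis used Python 3.11.15 and R 4.3.3.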

Additional observations from a re-analysis of the deposited data

Results flagged for a closer look

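A pair of members differed between the libraries in opposite directions in different classes, by at least 1.5-fold and with counting intervals on opposite sides of 0. The difference between the classes was not tested. ITGAV had a log2 ratio of 1.10 in gonadotroph-like cells and -0.90 in macrophage-like cells. ITGA3 had a log2 ratio of 0.70 in endothelial-like cells (0.54 without cluster 29) and -1.04 in gonadotroph-like cells. For ITGAV, the levels were 31.4 and 30.5 within gonadotroph-like cluster 14, 28.6 and 70.8 within cluster 12, and 136 and 66.6 within macrophage-like cluster 4, where 41 cells came from the 6-month library.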

How the results depend on the processing

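The count of class-specific members, 15, stayed between 12 and 17 in 11 alternatives, but the members changed. With the stricter cell filter fibroblast or mural-like cells were not compared, and 13 of the 15 were kept. LAMA2 and LAMC3 were lost there, and ITGA1, ITGA7, ITGB7 and ITGBL1 were gained. The counts of members apart, per class, stayed within 1.5 times the reported count in 77 of 92 alternatives. These include counts of 0 that stayed 0 in T or NK-like, somatotroph-like and stem or folliculostellate-like cells. Equal counts could also hold other members. With all UMIs as denominator gonadotroph-like cells lost ITGAV and gained LAMA5, and with means of per-cell levels endothelial-like cells lost LAMC1 and gained ITGA9. In gonadotroph-like cells the count of 3 became 1 with means of per-cell levels, at resolutions 0.5 and 2.0, with the stricter cell filter and with the members kept for clustering. The call of ITGAV was lost in each of these, and also with all UMIs as denominator, with doublets kept and without cluster 25. In fibroblast or mural-like cells 4 became 2 with means of per-cell levels and 2 with doublets kept, and 6 with all UMIs, with TMM and with the members kept for clustering, where LAMA4 and ITGA1 were added. In macrophage-like cells 2 became 1 with means of per-cell levels, 1 at a minimum of 100 UMIs, and 4 with the stricter cell filter. In endothelial-like cells 2 became 1 at that minimum and 1 without cluster 29. In stem or folliculostellate-like cells 0 became 1 (LAMB4) with doublets kept and 1 (LAMB4) at a minimum of 20 UMIs. In somatotroph-like cells 0 became 1 (LAMA3) with TMM. The settings without or within single clusters were chosen after seeing the data. For 24 log2 ratios there were 229 alternative values, and no ratio counted as apart changed its sign. Ratios not counted as apart had no call to reverse, and some changed sign. ITGA5 in endothelial-like cells went from 0.29 to as low as -0.23, and LAMB3 in stem or folliculostellate-like cells from 0.16 to -0.33. LAMB1 in fibroblast or mural-like cells went from -0.63 to as high as 0.03. Of the 229 values, 205 stayed within the counting interval of the reported value. Over all genes, the share of those apart that were higher went from 44.3% to 17.4% in somatotroph-like cells with TMM, and from 35.1% to 20.6% in gonadotroph-like cells with all UMIs. The median log2 ratio of all genes went from 0.14 to -0.05 and from -0.09 to -0.23 there, from -0.33 to -0.51 (TMM) and -0.55 (all UMIs) in fibroblast or mural-like cells, and from 0.37 to 0.48 (TMM) in T or NK-like cells. The stricter filter left under 20 fibroblast or mural-like cells at 6 months, so it gave no value there. No paired analysis was possible because each age has 1 library.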
